A study of Mus musculus with 2 samples.

Results

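The genes described here are 36 of the 32285 genes in the deposited tables, the mouse genes for ATP-dependent chromatin remodelers of the Chd family and for SWI/SNF, ISWI and INO80 complexes. They were taken by gene symbol and no measured value chose them. Single cells of mouse embryos at embryonic day 7 (E7), the stage of gastrulation, were measured with 3′ droplet RNA sequencing on the 10x Genomics platform, in 2 libraries. Both libraries held pooled embryos, 1 library per genotype. In the conditional knockout (cKO, Sox2-Cre:*Yap1* flox/flox) the transcriptional co-activator gene *Yap1* was deleted by Sox2-Cre, which recombines in the epiblast and its descendants and is not meant to recombine in extraembryonic lineages. The control library held Sox2-Cre:*Yap1* flox/+ littermates by the single-cell methods, floxed littermates without Cre by the mouse methods, and wild-type embryos by the labels. Only sires carried Sox2-Cre, by the study's account. The comparison asks which remodeler genes differ between epiblast lineages with and without *Yap1*. With 1 library per genotype there is no replicate and no test between genotypes. Every interval given in parentheses is a 95% interval that covers counting error only.

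Remodelers use the energy of ATP to slide, evict or exchange nucleosomes, the DNA spools of chromatin, and so set which regulatory DNA is open. SWI/SNF complexes carry 1 of a pair of ATPases and come as canonical BAF, PBAF and ncBAF, told apart by their extra subunits. The BAF form of pluripotent cells (esBAF) is known for *Smarca4*, *Smarcc1* and *Smarcd1* and for little *Smarca2* or *Smarcc2*. Chd proteins pair a chromodomain with the ATPase, and some of them, such as the ATPases of the NuRD deacetylase complex, work as part of a larger complex.

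The control library had 1829 cell barcodes with 70573418 unique molecular identifiers (UMIs) and the cKO library 1897 with 87937858. After filters, 790 control cells (median 75697 UMIs) and 860 cKO cells (median 80559 UMIs) remained. The libraries shared 2 barcodes, none of them among these cells. Cells were assigned to 9 populations by sums of marker UMIs, and each name ends in "-like" because the populations were rebuilt from markers. Each marker was at least 1.5 times as high in its own population as in the other cells of both libraries, except *Shh* in node-like and *Esx1* in extraembryonic ectoderm-like cells. Markers from the same lists had assigned the cells, so this was largely set by the gates and is no separate support for the names. Control and cKO cells numbered 273 and 278 in epiblast-like, 31 and 51 in primitive streak-like, 122 and 130 in nascent mesoderm-like, 41 and 27 in lateral mesoderm-like, 25 and 24 in blood progenitor-like and 16 and 16 in node-like cells. Extraembryonic populations held 73 and 193 visceral endoderm-like, 21 and 27 anterior visceral endoderm-like and 179 and 98 extraembryonic ectoderm-like cells.

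Levels are a gene's UMIs summed over a population, per 1000000 UMIs of the same cells (CPM). Fewer transcripts per cell and fewer transcribing cells cannot be told apart in such sums. The targeted gene followed the labels: *Yap1* stood at 29.3 CPM in control against 1.05 CPM in cKO epiblast-like cells, and at 24.8 and 18.5 CPM in extraembryonic ectoderm-like cells. In anterior visceral endoderm-like cells, also extraembryonic, it was at 38.4 and 13.9 CPM, a cKO to control ratio of 0.361 (0.217 to 0.591) on 45 and 28 UMIs, and these cells carried 1441 and 1463 CPM of epiblast markers, against 582 and 450.2 CPM in visceral endoderm-like cells. Extraembryonic ectoderm-like cells carried still more of these markers, at 2059 and 1892 CPM. What part epiblast cells have in the anterior visceral endoderm-like *Yap1* ratio was not tested. The labels call both libraries female, whereas 51.6% of control and 15.6% of cKO cells carried at least 2 Y-linked UMIs and no *Xist* UMI (Y-bearing cells). Xist-bearing cells are those with at least 2 *Xist* UMIs and no Y-linked UMI. Since the sexes were mixed unequally, the main differences between libraries are also given within cells of each kind, in the 5 larger populations. By the study's account each library pooled only a few embryos. Cells of either kind in a library can therefore stem from very few embryos, and sex cannot be told apart from embryo.

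Sequences are shown first for *Smarca1*, *Smarca2* and *Smarcd3*, picked after values had been seen, so that their lineage patterns can be read beside the DNA in front of each gene. *Smarca1* and *Smarca2* had the widest range of levels over the control populations. *Chd9*, next in that order with a range of 34.98-fold, is not printed, and *Smarcd3* had too few control UMIs to be ranked. *Smarca1* and *Smarca2*, ATPase genes of ISWI and SWI/SNF, had few UMIs in extraembryonic ectoderm-like cells, and *Smarcd3*, a SWI/SNF subunit gene known from heart development, was at its highest level in lateral mesoderm-like cells. Each line gives the DNA before the RefSeq start (assembly GRCm38.p6), 5′ to 3′ on the gene's strand, with CG pairs in capitals, and leaves out bases that a GENCODE M21 exon covers. The *Smarca1* stretch is at chrX:47892614-47892863 (minus strand) and lies in an intron of longer GENCODE transcripts, the *Smarca2* stretch is at chr19:26604910-26605049 (plus strand) and lies outside GENCODE transcripts, and the *Smarcd3* stretch is at chr5:24602013-24602252 (minus strand), in an intron of a longer *Smarcd3* transcript.
Smarca1: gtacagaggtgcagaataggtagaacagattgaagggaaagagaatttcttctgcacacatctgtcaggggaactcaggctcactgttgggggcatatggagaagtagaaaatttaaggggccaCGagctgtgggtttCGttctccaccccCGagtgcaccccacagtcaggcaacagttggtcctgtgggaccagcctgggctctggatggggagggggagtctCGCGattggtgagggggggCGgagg
Smarca2: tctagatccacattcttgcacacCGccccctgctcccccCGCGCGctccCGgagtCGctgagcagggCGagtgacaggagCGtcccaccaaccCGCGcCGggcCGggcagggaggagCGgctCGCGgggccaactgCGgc
Smarcd3: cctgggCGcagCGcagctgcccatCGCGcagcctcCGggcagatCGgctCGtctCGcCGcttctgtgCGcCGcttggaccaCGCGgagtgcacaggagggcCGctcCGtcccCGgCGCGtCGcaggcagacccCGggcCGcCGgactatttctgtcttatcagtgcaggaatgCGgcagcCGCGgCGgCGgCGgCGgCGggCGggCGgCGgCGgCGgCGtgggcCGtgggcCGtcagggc
These stretches hold 6 CG pairs in 250 bases for *Smarca1*, 16 in 140 for *Smarca2* and 38 in 240 for *Smarcd3*. Over the 250 bases before the start, the 35 promoters found for 29 of the 36 genes had a median of 22 CG pairs, against 6 over all 32851 promoters in RefSeq's table. *Smarca1* with 6 and *Smarcd2* with 4 were the members with the fewest. The letters GGAATG, or CATTCC on the other strand, the core motif known for TEAD factors, the DNA-binding partners of YAP1, were in 4 of the 35 promoters (11.4%) and in 12.6% of all promoters. They were found for *Smarcd3*, *Chd6* and both promoters of *Brd9*.

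The clearest pattern of the 36 genes was between lineages, within each library. In epiblast-like against extraembryonic ectoderm-like cells, 16 of 34 tested members were at least 1.5 times as high in both libraries, where 22.2% of all 10967 tested genes were. None was 1.5 times lower in both, against 15.4% of all genes. The median log2 ratio was 0.49 over the members and 0.06 over all genes. A gene was tested with at least 100 UMIs over both populations in each library, which left out *Chd5* and *Smarcd3*. By role, the 16 were both SWI/SNF ATPase genes, 5 of the 7 tested core subunits (*Smarcb1*, *Smarcc1*, *Smarcd1*, *Smarcd2* and *Smarce1*), 3 of 4 BAF genes (*Arid1a*, *Arid1b* and *Dpf2*), *Pbrm1* of the 3 PBAF genes, 3 of the 4 genes *Chd6* to *Chd9*, *Chd2* and *Smarca1*. No member of the INO80 and SWR1 group, the NuRD ATPase group or the group of other ATPases (*Smarcad1*, *Smarcal1*) was among them. The libraries differ in genotype, so this count is over 2 conditions and not over replicates. The extraembryonic ectoderm gate had been narrowed after UMIs of *Smarca2*, a member counted here, were seen, so the count is partly set by that choice. Its value on the gate with all 9 markers, which was lower, is given with the alternatives below.

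**Figure D1:**
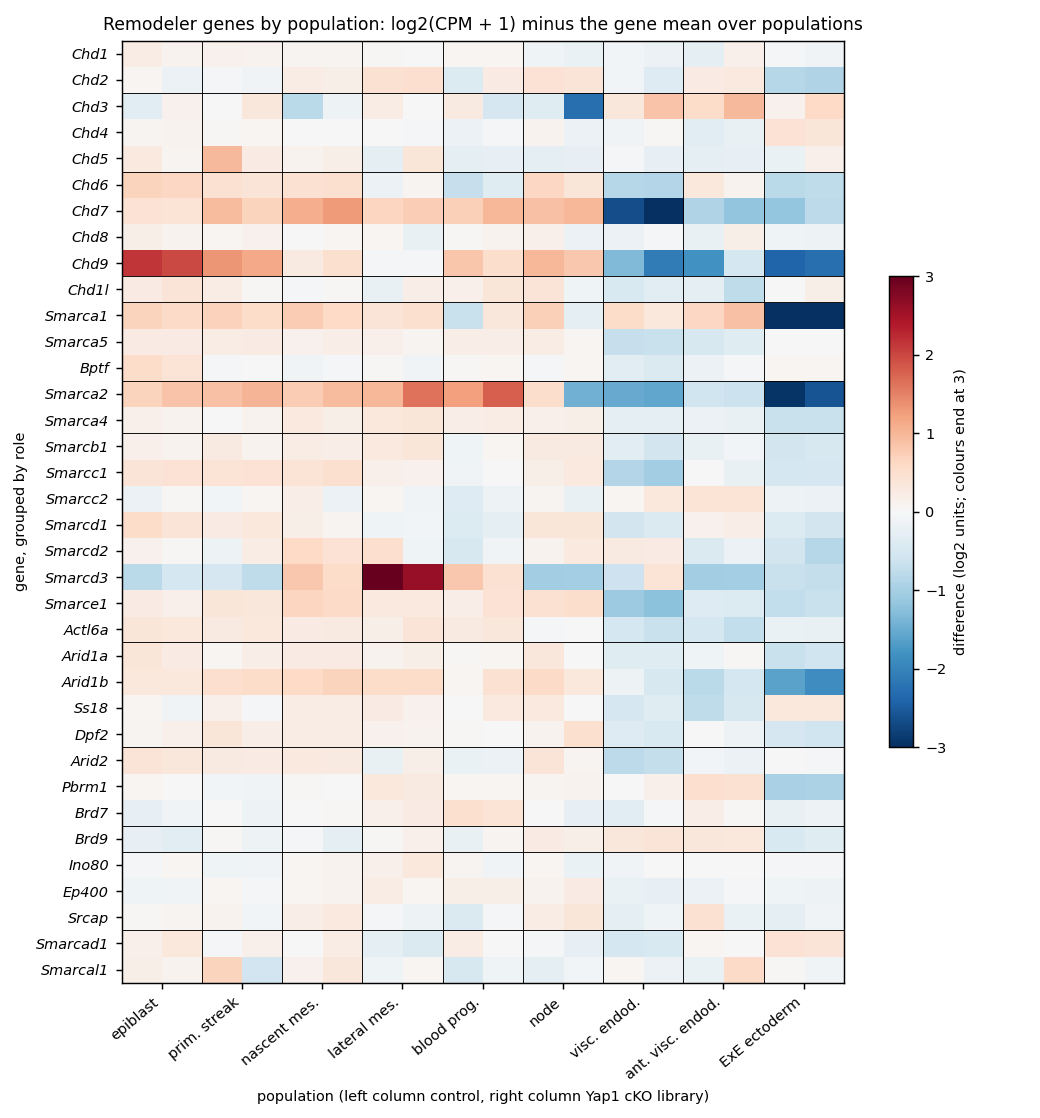
Level of each remodeler gene in each population and library, as log2(CPM + 1) minus the gene's mean over the 9 populations of the same library (colour scale in log2 units, ending at 3). A difference between the libraries that all populations share is therefore not visible. Rows are genes grouped by role and columns are the 9 populations, control left and cKO right in each pair. Among the darkest blue fields are *Smarca1*, *Smarca2* and *Chd9* in extraembryonic ectoderm-like and *Chd7* in visceral endoderm-like cells, and among the darkest red is *Smarcd3* in lateral mesoderm-like cells, where it was at 16.3 CPM in control.

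*Smarca2* and *Smarca4* encode the alternative ATPases of SWI/SNF, BRM and BRG1. *Smarca2* (chr19:26605050-26778322) was at 17.7 in epiblast-like, 20.8 in primitive streak-like, then 19.2 in nascent mesoderm-like, 22.6 in lateral mesoderm-like, 26.7 in blood progenitor-like, 16.1 in node-like, 3.14 in visceral endoderm-like, 6.83 in anterior visceral endoderm-like and 0.532 in extraembryonic ectoderm-like cells of the control library, in CPM. In cKO the levels in the same order were 21.2, 24.1, 23.02, 37.1, 41.6, 3.53, 3.16, 6.93 and 1.06 CPM. *Smarca2* was thus lower in all 3 extraembryonic populations than in epiblast-like cells of both libraries, and blood progenitor-like and lateral mesoderm-like cells were the highest. Node-like cells, with only 16 cells per library, gave 20 control and 4 cKO UMIs. The extraembryonic ectoderm-like sums hold only 9 and 13 UMIs, and the ratio of epiblast-like to these cells was 33.3 (17.4 to 73.4) in control and 19.97 (11.6 to 37.7) in cKO. The gate for these cells had been narrowed after *Smarca2* UMIs were seen in them, so that this fold is partly set by the choice. Gated on all 9 listed markers with no cells barred, they held 7 and 39 *Smarca2* UMIs in 184 and 108 cells (0.403 and 2.98 CPM), and the ratio was 43.7 (21.01 to 109) in control and 7.11 (5.14 to 10.1) in cKO. *Smarca4* varied less, from 72.99 CPM in extraembryonic ectoderm-like to 147 CPM in lateral mesoderm-like control cells, with 129.8 CPM in epiblast-like cells. As a share of the UMIs of both genes, *Smarca2* took 12.01% in control and 14.4% in cKO epiblast-like cells, 16.5% and 23.5% in blood progenitor-like, 3.13% and 3.15% in visceral endoderm-like and 0.723% and 1.44% in extraembryonic ectoderm-like cells. A share of 3′ UMIs is not scaled to length, so it was compared between populations and not read as a ratio of proteins.

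The ISWI ATPases SNF2L and SNF2H are encoded by *Smarca1* and *Smarca5*. *Smarca1* (chrX:47809368-47892974) was at 28.9 in epiblast-like, 29.6 in primitive streak-like, then 31.2 in nascent mesoderm-like, 23.6 in lateral mesoderm-like, 10.9 in blood progenitor-like, 29.9 in node-like, 26.5 in visceral endoderm-like, 28.2 in anterior visceral endoderm-like and 0.414 in extraembryonic ectoderm-like control cells, in CPM. The cKO values in that order were 26.2, 25.7, 26.7, 24.5, 21.9, 14.1, 21.6, 32.7 and 0.653 CPM. Unlike *Smarca2*, it was close to its epiblast-like level in visceral endoderm-like cells. Extraembryonic ectoderm-like cells were the lowest of the 9 populations, and there only 7 and 8 UMIs were counted in the 2 libraries. Epiblast-like to extraembryonic ectoderm-like ratios were 69.9 (33.7 to 175) in control and 40.1 (20.3 to 93.3) in cKO, and visceral endoderm-like to extraembryonic ectoderm-like ratios 64.2 (30.4 to 162) and 33.1 (16.6 to 77.4). With the wider gate on 9 markers the first pair became 26.3 (16.7 to 44.00) and 10.1 (7.15 to 14.7), on 19 and 34 UMIs. The low *Smarca1* level in extraembryonic ectoderm-like cells is thus also partly set by the choice of gate. Its share of the UMIs of both ISWI ATPase genes was 6.35% in epiblast-like, 10.6% in visceral endoderm-like and 0.115% in extraembryonic ectoderm-like control cells. *Smarca5* was at 426 CPM in epiblast-like, 359.9 in extraembryonic ectoderm-like and 223 CPM in visceral endoderm-like control cells. *Bptf*, the large subunit gene of the NURF complex that SNF2L drives, was at 211, 149 and 114 CPM in the same populations.

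**Figure D2:**
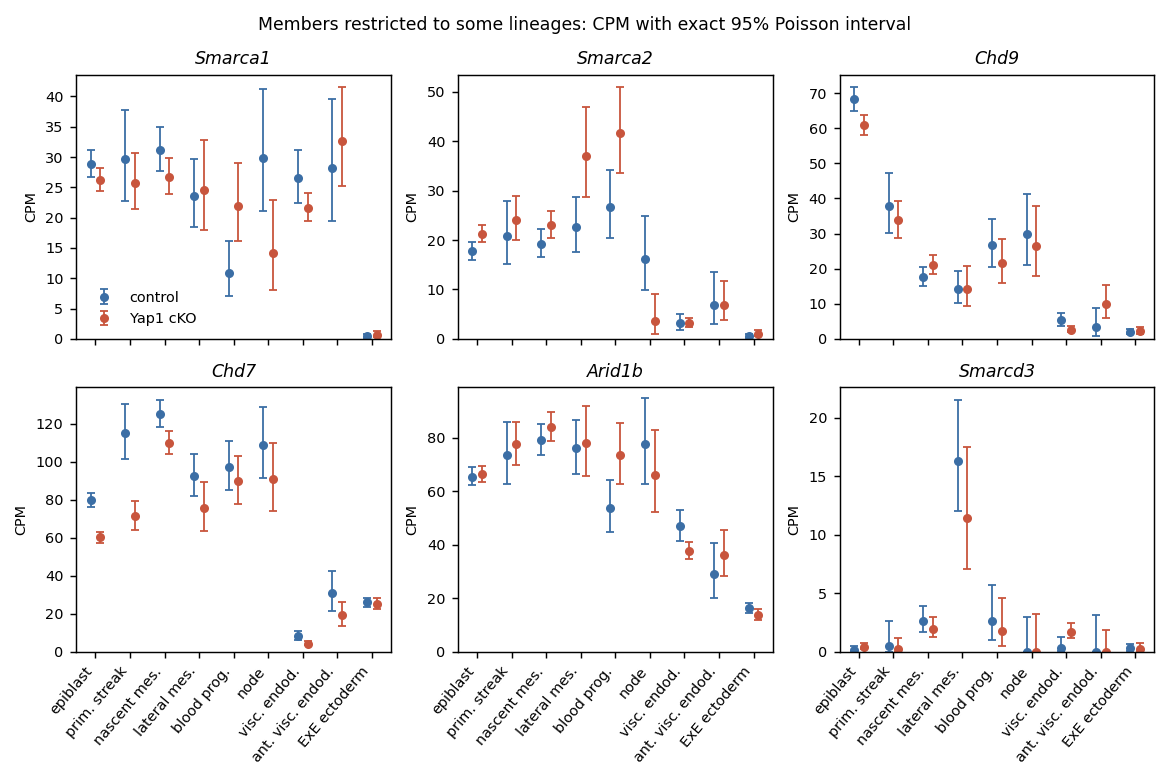
CPM (vertical axis, from 0, each gene on its own scale) of 6 remodeler genes in the 9 populations (horizontal axis), control in blue and cKO in red, with exact 95% Poisson intervals as bars. *Smarca1*, *Smarca2* and *Chd9* lie near 0 in extraembryonic ectoderm-like cells of both libraries, *Chd7* is lowest in visceral endoderm-like cells, and *Smarcd3* stands out in lateral mesoderm-like cells alone.

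*Chd6* to *Chd9* form the subfamily in which *CHD7* is the gene mutated in CHARGE syndrome. Over the control populations, *Chd6*, *Chd8* and *Chd9* each had their highest level in epiblast-like cells. *Chd9* (chr8:90828352-91054516) was at 68.2 in epiblast-like, 37.95 in primitive streak-like, then 17.7 in nascent mesoderm-like, 14.3 in lateral mesoderm-like, 26.7 in blood progenitor-like, 29.9 in node-like, 5.24 in visceral endoderm-like, 3.41 in anterior visceral endoderm-like and 1.95 in extraembryonic ectoderm-like control cells, in CPM. Values in cKO, in the same order, were 60.8, 33.8, 21.05, 14.2, 21.5, 26.5, 2.66, 9.90 and 2.28 CPM. Epiblast-like cells led in both libraries, with primitive streak-like cells next and intervals that do not meet (68.2 CPM (64.8 to 71.8) and 37.95 CPM (30.2 to 47.1) in control). Nascent mesoderm-like to epiblast-like ratios were 0.259 (0.220 to 0.304) in control and 0.346 (0.301 to 0.396) in cKO. Only 33 and 28 *Chd9* UMIs were in extraembryonic ectoderm-like cells, and the epiblast-like to extraembryonic ectoderm-like ratio was 34.98 (24.8 to 51.00) in control and 26.6 (18.4 to 40.2) in cKO, or 31.9 (23.02 to 45.4) and 21.5 (15.5 to 30.7) with the wider gate.

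*Chd7* (chr4:8690406-8867659), an ATPase known at enhancers and for neural crest and ear development, showed another order. Control levels were 79.9 in epiblast-like, 115 in primitive streak-like, then 126 in nascent mesoderm-like, 92.7 in lateral mesoderm-like, 97.5 in blood progenitor-like, 109 in node-like, 8.38 in visceral endoderm-like, 30.7 in anterior visceral endoderm-like and 25.9 in extraembryonic ectoderm-like cells, in CPM. Those of cKO, in the same order, were 60.2, 71.6, 110.0, 75.8, 89.9, 90.9, 4.24, 19.3 and 25.4 CPM. Nascent mesoderm-like cells were the highest in both libraries, at 1.57 (1.46 to 1.69) times the epiblast-like level in control and 1.83 (1.70 to 1.97) times in cKO, and visceral endoderm-like cells the lowest. *Chd7* was the single member at least 1.5 times higher, and *Chd9* the single member at least 1.5 times lower, in nascent mesoderm-like than in epiblast-like cells of both libraries, where 8.29% and 10.1% of all genes passed. In the control intervals, nascent mesoderm-like, primitive streak-like and node-like cells overlapped. *Chd6* was at 119 CPM in epiblast-like, 41.7 in extraembryonic ectoderm-like and 40.5 CPM in visceral endoderm-like control cells. *Chd8*, which restrains Wnt target genes, was 1.33 times as high in the highest as in the lowest of the 9 control populations.

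Of the remaining Chd genes, *Chd2* was at 78.4 in epiblast-like, 72.2 in primitive streak-like, then 89.2 in nascent mesoderm-like, 105 in lateral mesoderm-like, 56.8 in blood progenitor-like, 103 in node-like, 71.1 in visceral endoderm-like, 90.4 in anterior visceral endoderm-like and 41.5 in extraembryonic ectoderm-like control cells, in CPM. The cKO library gave 68.02, 71.8, 87.4, 109.6, 91.7, 101, 58.6, 95.5 and 40.7 CPM for it in that order. It was lowest in extraembryonic ectoderm-like cells of both libraries. *Chd1*, known for keeping the chromatin of pluripotent cells open, ranged only from 149 to 210.3 CPM over the control populations. The NuRD ATPase gene *Chd4* was at 313 CPM in epiblast-like and 398 CPM in extraembryonic ectoderm-like control cells, and took between 93.4% and 97.96% of the UMIs of *Chd3*, *Chd4* and *Chd5* in control. *Chd3* was 1 of 2 members higher in visceral endoderm-like than in epiblast-like cells, at 13.97 against 8.36 CPM in control. *Chd5*, known as a neural gene, had between 0 and 11 UMIs in every population and library. *Chd1l* (ALC1, which acts at DNA damage) was at 23.7 CPM in epiblast-like and 13.97 CPM in visceral endoderm-like control cells.

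*Arid1a* and *Arid1b* encode the alternative DNA-binding subunits of canonical BAF. *Arid1a* was at 151 in epiblast-like, 123 in primitive streak-like, then 141 in nascent mesoderm-like, 128 in lateral mesoderm-like, 119.8 in blood progenitor-like, 150.2 in node-like, 91.2 in visceral endoderm-like, 108 in anterior visceral endoderm-like and 74.00 in extraembryonic ectoderm-like control cells, in CPM. Over cKO it was at 139, 133, 138, 132, 122, 115, 90.2, 120.2 and 76.7 CPM in the same order. *Arid1b* (chr17:4994332-5347656) was at 65.5, 73.6, 79.2, 76.1, 53.8, 77.5, 46.97, 29.01 and 16.3 CPM in control, in that order again. Its levels in cKO were 66.4, 77.6, 84.1, 77.97, 73.4, 66.2, 37.8, 36.1 and 13.9 CPM. Both were lowest in extraembryonic ectoderm-like cells of each library, and *Arid1b* more so: epiblast-like to extraembryonic ectoderm-like ratios were 4.01 (3.53 to 4.58) for *Arid1b* and 2.04 (1.91 to 2.18) for *Arid1a* in control, and 4.79 and 1.81 in cKO. The *Arid1b* share of the UMIs of both was 30.3% in epiblast-like, 35.98% in nascent mesoderm-like and 18.1% in extraembryonic ectoderm-like control cells. *Ss18*, a BAF subunit gene, was at 69.7 CPM in epiblast-like and 84.1 CPM in extraembryonic ectoderm-like control cells, and *Dpf2*, a histone-reading BAF subunit gene, at 41.1 and 27.4 CPM.

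**Figure D3:**
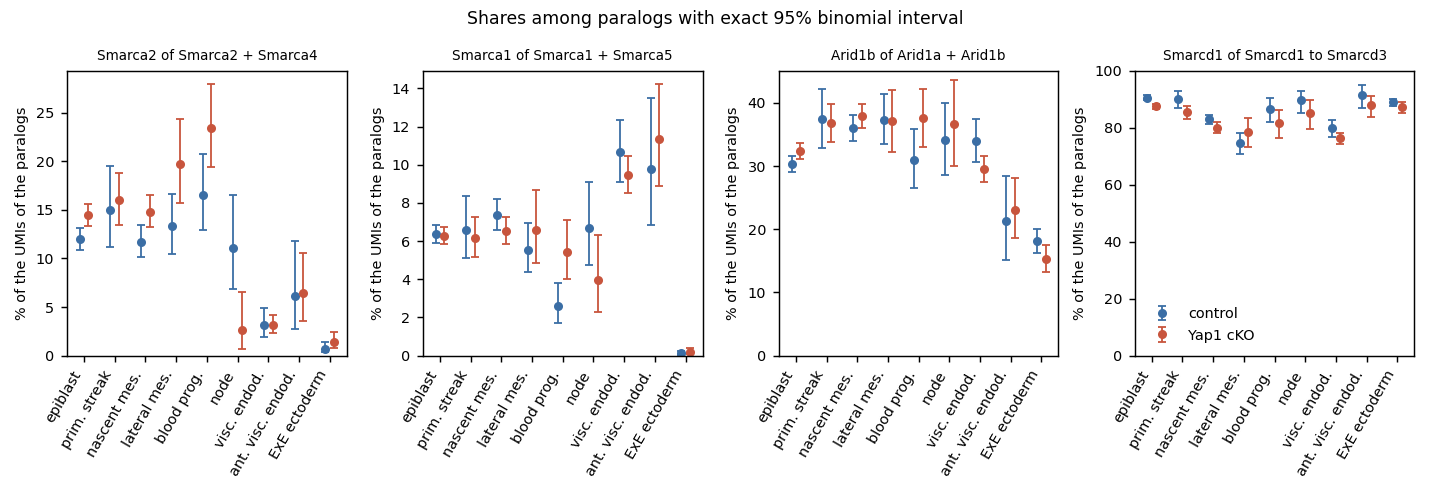
Share of UMIs among alternative subunit genes (vertical axis, % of the UMIs of the genes named above each panel, from 0) in the 9 populations (horizontal axis), control in blue and cKO in red, with exact 95% binomial intervals. *Smarca2*, *Smarca1* and *Arid1b* take their smallest shares in extraembryonic ectoderm-like cells, at 0.723%, 0.115% and 18.1% in control, and *Smarcd1* takes its smallest control share in lateral mesoderm-like cells (74.5%). The extraembryonic ectoderm gate had been narrowed after *Smarca2* UMIs were seen, so the *Smarca2* and *Smarca1* shares there are partly set by that choice.

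The core subunit genes *Smarcd1*, *Smarcd2* and *Smarcd3* encode alternative BAF60 proteins, which link the complex to transcription factors. *Smarcd1* (chr15:99702129-99713991) was at 212 in epiblast-like, 169 in primitive streak-like, then 162 in nascent mesoderm-like, 132 in lateral mesoderm-like, 108 in blood progenitor-like, 187 in node-like, 98.1 in visceral endoderm-like, 158 in anterior visceral endoderm-like and 109 in extraembryonic ectoderm-like control cells, in CPM. cKO levels in this order were 161, 153, 129, 116, 99.3, 156, 90.4, 139.5 and 82.6 CPM. It was highest in epiblast-like cells of both libraries and lowest in visceral endoderm-like cells of control and extraembryonic ectoderm-like cells of cKO. *Smarcd2* gave 22.1, 18.1, 30.9, 28.9, 13.99, 21.8, 24.4, 14.5 and 13.3 CPM in control and 22.5, 25.9, 30.2, 20.2, 20.6, 27.4, 26.5, 19.3 and 11.8 CPM in cKO over the same populations, highest in nascent mesoderm-like cells of both. *Smarcd3* was at 16.3 CPM (12.04 to 21.5) in control and 11.4 CPM (7.09 to 17.5) in cKO lateral mesoderm-like cells and at no more than 2.62 CPM in any other population. Its node-like and anterior visceral endoderm-like sums held 0 UMIs, and a count of 0, which allows up to 3 counts, allows up to 2.42 CPM in node-like and 2.56 CPM in anterior visceral endoderm-like control cells.

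*Smarcc1* and *Smarcc2* encode the scaffold subunits. *Smarcc1* was at 366 and 336 CPM in epiblast-like, 196 and 175 CPM in extraembryonic ectoderm-like and 153 and 121 CPM in visceral endoderm-like cells of control and cKO. *Smarcc2* was at 20.1 in epiblast-like, 21.3 in primitive streak-like, then 26.4 in nascent mesoderm-like, 23.6 in lateral mesoderm-like, 17.05 in blood progenitor-like, 24.2 in node-like, 23.7 in visceral endoderm-like, 30.7 in anterior visceral endoderm-like and 20.4 in extraembryonic ectoderm-like control cells, in CPM. Corresponding cKO levels were 19.98, 20.6, 17.4, 17.99, 17.4, 16.8, 24.8, 26.2 and 17.1 CPM. The *Smarcc2* share of both was 5.22% in epiblast-like and 13.5% in visceral endoderm-like control cells, and 5.61% and 16.99% in cKO. *Smarce1*, a DNA-bending subunit gene, was at 211, 229, 278, 219, 204, 241, 82.2, 134 and 106 CPM in control and 193, 217, 258, 212, 233, 249.7, 72.9, 131 and 108 CPM in cKO in the population order used above, highest in nascent mesoderm-like and lowest in visceral endoderm-like cells of both. *Smarcb1*, the tumour suppressor subunit gene, was at 129 CPM in epiblast-like and 79.8 CPM in extraembryonic ectoderm-like control cells, and the actin-related subunit gene *Actl6a* at 212 and 143 CPM.

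PBAF is marked by *Arid2*, *Pbrm1* and *Brd7*, and ncBAF by *Brd9*. *Pbrm1* was at 140.2 CPM in epiblast-like, 137 in visceral endoderm-like and 68.1 CPM in extraembryonic ectoderm-like control cells, whereas *Arid2* was lowest in visceral endoderm-like cells, at 117, 51.5 and 89.7 CPM in the same order. *Brd7* was at 85.7 CPM in epiblast-like and 87.5 CPM in extraembryonic ectoderm-like control cells. *Brd9* was at 25.3, 31.01, 29.3, 30.9, 25.8, 36.3, 38.4, 38.4 and 21.9 CPM in control and, in cKO, 20.8, 23.7, 21.6, 29.4, 28.2, 30.00, 34.7, 33.2 and 20.3 CPM, in the population order used above. Visceral endoderm-like cells had 1.52 (1.30 to 1.78) times the epiblast-like level of *Brd9* in control and 1.67 (1.48 to 1.88) times in cKO. The INO80 family ATPase genes varied little: over the 9 control populations *Ino80* spanned 51.4 to 62.4 CPM and *Ep400* 60.9 to 82.03 CPM, while *Srcap* spanned 35.4 to 66.5 CPM. *Smarcad1*, known for heterochromatin upkeep during replication, was at 116, 100.4, 105, 84.4, 122, 101, 72.1, 108 and 141 CPM in control and 119, 106, 111, 69.2, 95.7, 79.4, 69.1, 95.5 and 124 CPM in cKO, highest in extraembryonic ectoderm-like cells of both.

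Visceral endoderm-like cells were lower than epiblast-like cells for 14 of 34 tested members at 1.5-fold in both libraries, where 27.5% of 10660 genes were lower. Higher were 2 members, *Chd3* and *Brd9*, against 23.1% of all genes, and the median log2 ratio was -0.48 for the members and -0.13 for all genes. The 14 were *Chd1l*, *Chd6*, *Chd7*, *Chd9*, *Smarca2*, *Smarca5*, *Smarcad1*, *Smarcc1*, *Smarcd1*, *Smarce1*, *Arid1a*, *Arid2*, *Actl6a* and *Bptf*. Of these *Smarca2* had only 18 control and 50 cKO UMIs in visceral endoderm-like cells and reached the UMI minimum through epiblast-like cells. *Chd7* had 0.105 (0.0770 to 0.140) of its epiblast-like level in control and 0.0703 (0.0542 to 0.0898) in cKO visceral endoderm-like cells, and *Chd9* 0.0768 and 0.0437. The extraembryonic populations also differed from each other. *Smarca1*, *Smarcd2*, *Arid1b*, *Pbrm1* and *Brd9* were higher, and *Chd7*, *Smarca5*, *Smarcad1*, *Arid2* and *Ss18* lower, in visceral endoderm-like than in extraembryonic ectoderm-like cells of both libraries, 5 of 32 tested members each way against 22.2% of all genes higher and 19.7% lower. Both counts are below the shares of all genes.

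Sums can be set by a few cells, so the share of cells with at least 1 UMI was taken after thinning each cell to 38000 UMIs, and 26 control and 48 cKO cells below that depth were left out. *Smarca1* was seen in 65.4% of control and 60.1% of cKO epiblast-like cells, in 56.7% and 49.4% of visceral endoderm-like cells and in 1.74% and 1.08% of extraembryonic ectoderm-like cells. For *Smarca2* the shares were 46.8% and 50.4% in epiblast-like and 1.16% and 4.30% in extraembryonic ectoderm-like cells, and for *Chd9* 87.4% and 83.2% against 5.81% and 6.45%. Since the extraembryonic ectoderm gate had been narrowed after *Smarca2* UMIs were seen, its low *Smarca2* and *Smarca1* shares are partly set by that choice. Shares were not taken on the wider gate, which held 7 and 39 *Smarca2* UMIs and 19 and 34 *Smarca1* UMIs in 184 control and 108 cKO cells. Free RNA in droplets can give cells UMIs of genes they do not express. It was not measured here, and its part in the low extraembryonic ectoderm-like shares was not tested. Without thinning the *Smarca1* shares were 84.6% and 89.2% in epiblast-like and 3.91% and 4.08% in extraembryonic ectoderm-like cells, the median depths being 73348 and 85879 UMIs for the former and 84348 and 105143 for the latter. *Smarcd3* was seen in 35.9% and 34.6% of lateral mesoderm-like and 0.743% and 0.746% of epiblast-like cells of control and cKO, and without thinning in 56.1% and 40.7% against 1.47% and 3.96%. Unthinned epiblast-like and extraembryonic ectoderm-like shares in control were 65.6% and 1.68% for *Smarca2* and 94.9% and 15.6% for *Chd9*. The cKO shares were 80.6% and 6.12% for *Smarca2* and 94.96% and 17.3% for *Chd9*.

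Between the libraries few of the 36 genes differed. In epiblast-like cells 34 members had at least 100 UMIs over both libraries, and none was at least 25% higher in cKO, where 5.2% of 11575 genes were. *Chd7*, *Smarcd1* and *Ss18* were at least 20% lower, 3 of 34 (8.82%) against 9.05% of all genes, so the members' share is close to that of all genes. *Chd7* had a cKO to control ratio of 0.754 (0.704 to 0.806), *Smarcd1* of 0.757 (0.727 to 0.789) and *Ss18* of 0.799 (0.744 to 0.858). The *Ss18* ratio was 0.840 (0.765 to 0.924) in Xist-bearing cells, short of the limit, and 0.639 (0.559 to 0.730) in Y-bearing cells. The members' median log2 ratio was -0.11 against -0.05 for all genes. Just inside and outside that limit stood *Ss18* and *Brd9*, at 0.799 and 0.824, and *Brd9* was at 0.771 (0.656 to 0.907) in Xist-bearing and 0.888 (0.728 to 1.08) in Y-bearing cells. On the upper side *Dpf2* at 1.20 (1.10 to 1.31) and *Smarca2* at 1.20 (1.05 to 1.36) came nearest to the upper limit without passing it. In Xist-bearing cells both passed it, at 1.39 (1.23 to 1.57) and 1.29 (1.07 to 1.57), while Y-bearing cells gave 0.943 (0.815 to 1.09) for *Dpf2* and 1.23 (0.995 to 1.52) for *Smarca2*.

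Gene span moved with these ratios in all genes. Genes of at least 100 kb had a median log2 ratio of -0.10 in epiblast-like and -0.10 in extraembryonic ectoderm-like cells, and genes under 20 kb 0.01 in both. The 11 members of at least 100 kb had a median of -0.10 in epiblast-like cells, as all genes of that span did. The 20 members of 20 to 100 kb were at -0.12 against -0.08 for all genes of that span, and the 3 under 20 kb at 0.02. In ratios relative to extraembryonic ectoderm-like cells the medians of all genes in the 3 span classes lay between 0.00 and 0.02. Those of the members were 0.17 under 20 kb (3 members), -0.05 from 20 to 100 kb (19 members) and -0.01 from 100 kb (9 members).

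Dividing the epiblast-like ratio by that of extraembryonic ectoderm-like cells, which Sox2-Cre should spare, gives a relative ratio that takes out differences found in both populations. By the study's account, extraembryonic tissue of these embryos is likely heterozygous for *Yap1* through deletion of the paternal allele, so the reference need not be intact. In it *Yap1* was at 24.8 CPM in control against 18.5 in cKO, a ratio of 0.748 (0.634 to 0.881), and *Fgf8* at 0.177 against 7.59 CPM. The part of either in the relative ratios, or in differences shared by both populations, was not tested. On this scale 31 members were tested, and *Chd7* alone passed the same limits: 1 was lower against 7.16% of 9375 genes, and none higher against 6.85%. Medians of the log2 relative ratio were -0.03 for the members and 0.01 for all genes. The 4 lowest were *Chd7* at 0.771 (0.657 to 0.904), *Chd2* at 0.884 (0.774 to 1.01), *Arid1a* at 0.888 (0.807 to 0.978) and *Brd9* at 0.890 (0.730 to 1.09). The 4 highest were *Arid1b* at 1.19 (0.974 to 1.46), *Smarcc2* at 1.18 (0.957 to 1.46), *Smarcad1* at 1.16 (1.07 to 1.26) and *Smarcd2* at 1.14 (0.897 to 1.45). By the levels given above, these 4 highest genes differed little between the libraries in epiblast-like cells. In extraembryonic ectoderm-like cells they were lower in cKO than in control, so their relative ratios above 1 came mostly from the reference. Of these 8, the intervals of *Chd7*, *Arid1a* and *Smarcad1* leave out 1. Several of these differed in direction between Xist-bearing and Y-bearing cells, which may also come from different embryos. The relative ratio of *Smarcc2* was 1.65 (1.20 to 2.27) in Xist-bearing and 0.607 (0.432 to 0.853) in Y-bearing cells, on opposite sides of 1. That of *Smarcd2* was 1.64 (1.15 to 2.34) and 0.745 (0.482 to 1.15) in the same order, that of *Arid1b* 0.851 (0.609 to 1.19) and 1.51 (0.997 to 2.28), and that of *Arid1a* 0.777 (0.668 to 0.904) and 1.05 (0.874 to 1.26). *Smarcad1* stayed above 1 in both, at 1.17 (1.03 to 1.32) and 1.16 (1.004 to 1.34).

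*Smarcd1* differed between the libraries in both populations. It stood at 212 CPM in control against 161 CPM in cKO epiblast-like cells, and 109 and 82.6 CPM in extraembryonic ectoderm-like cells, a ratio of 0.760 (0.703 to 0.821). It was the only member past these limits in extraembryonic ectoderm-like cells, 1 of 31 lower and 0 higher against 8.54% and 4.26% of 9804 genes. Its relative ratio was 0.997 (0.913 to 1.09), and over the alternatives it ranged from 0.822 to 1.02. In visceral endoderm-like cells the *Smarcd1* ratio was 0.937 (0.831 to 1.06) in Xist-bearing and 1.12 (0.855 to 1.46) in Y-bearing cells. With that population as the reference, the epiblast-like relative ratio was 0.803 (0.703 to 0.916) in Xist-bearing cells. How far the *Smarcd1* difference is shared thus depends on the reference. In Xist-bearing cells the *Smarcd1* ratio was 0.752 (0.710 to 0.796) in epiblast-like and 0.846 (0.745 to 0.961) in extraembryonic ectoderm-like cells. In Y-bearing cells it was 0.815 (0.762 to 0.872) and 0.862 (0.750 to 0.988). Neither kind of extraembryonic ectoderm-like cell reached the 20% limit that the sum over all of them passed, and the relative ratio was 0.889 in Xist-bearing and 0.946 in Y-bearing cells. Among extraembryonic ectoderm-like cells 108 of 179 control and 19 of 98 cKO cells were Y-bearing.

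**Figure D4:**
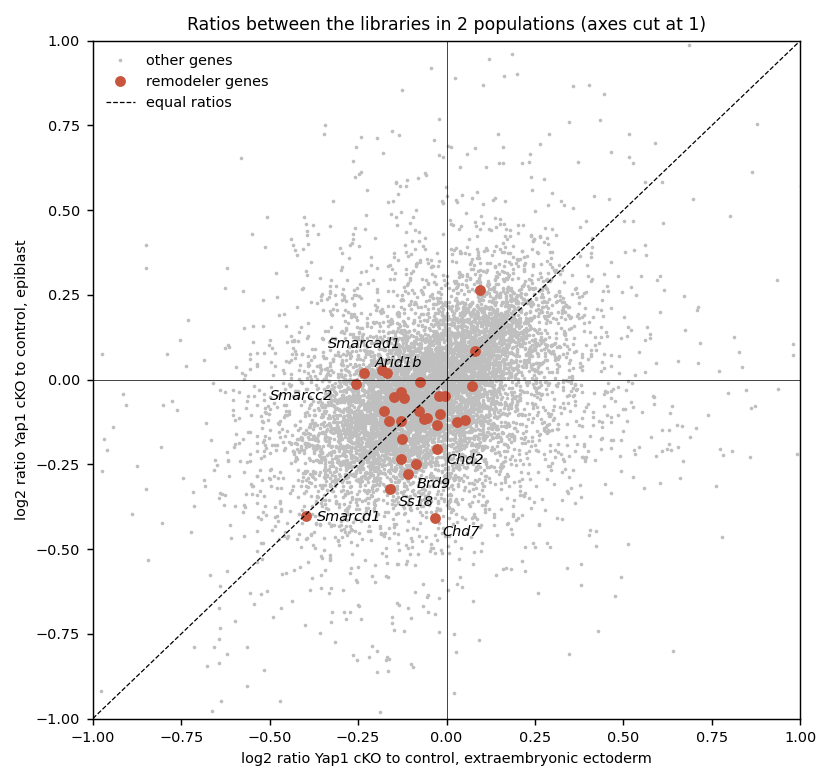
Log2 ratio of cKO to control in epiblast-like cells (vertical axis) against extraembryonic ectoderm-like cells (horizontal axis) for genes with at least 100 UMIs in each population, remodeler genes in red and other genes in grey. Axes end at -1 and 1. The dashed line marks equal ratios: *Smarcd1* lies on it, *Chd7* lies below it at -0.408 on the vertical axis and near 0 on the horizontal axis, and the other members are spread among the grey points.

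*Chd7* had cKO to control ratios under 1 in each of the 6 embryonic populations, at 0.754 in epiblast-like cells, 0.621 (0.527 to 0.734) in the primitive streak-like, 0.877 (0.810 to 0.949) in the nascent mesoderm-like, 0.818 (0.662 to 1.01) in lateral mesoderm-like, 0.922 (0.758 to 1.12) in blood progenitor-like and 0.834 (0.639 to 1.09) in node-like cells. The intervals of the last 3 include 1. The extraembryonic ectoderm-like ratio was 0.978 (0.843 to 1.13). In visceral endoderm-like cells, where *Yap1* stood at 31.6 CPM in control and 28.4 in cKO, it was 0.505 (0.344 to 0.748) on 48 and 67 UMIs. This differed between the kinds of cells: Xist-bearing visceral endoderm-like cells, 43 of 73 in control and 166 of 193 in cKO, gave 1.14 (0.605 to 2.35) on 12 and 55 UMIs, and Y-bearing cells 0.327 (0.0836 to 0.932) on 29 and 4 UMIs. With visceral endoderm-like cells as the reference, the epiblast-like relative ratio of *Chd7* turned to 1.49, but it was 0.686 (0.365 to 1.29) in Xist-bearing and 2.26 (0.790 to 6.47) in Y-bearing cells, both intervals including 1. With extraembryonic ectoderm-like cells as the reference and each cell weighted equally it was 0.832 and no longer past the limit. Within Xist-bearing cells the *Chd7* ratio was 0.785 (0.717 to 0.861) in epiblast-like and 0.939 (0.753 to 1.17) in extraembryonic ectoderm-like cells, which gives a relative ratio of 0.836, short of the 20% limit. Y-bearing cells gave 0.740 (0.659 to 0.830) and 0.565 (0.388 to 0.802), the latter on 36 cKO UMIs, and the relative ratio turned to 1.31. The epiblast-like ratio of *Chd7* was thus under 0.8 in both kinds of cells, while the relative ratio was below 1 in Xist-bearing and above 1 in Y-bearing cells with either reference, each with an interval that includes 1.

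Primitive streak markers differed between the libraries in epiblast-like cells: all 7 of the list were higher in cKO, and their sum was 149 CPM in control and 292 CPM in cKO. *T* and *Mixl1*, which the primitive streak gate keeps low in these cells, were at 0.904 and 0.813 CPM in control and 2.43 and 1.56 CPM in cKO. The levels of the 7 markers were not taken within each sex. Among epiblast-like cells with under 20 CPM of *Fgf8* the ratios were 0.727 for *Chd7* and 0.728 for *Smarcd1*. The part of these markers in the *Chd7* and *Smarcd1* ratios was not tested beyond that.

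In primitive streak-like cells relative to extraembryonic ectoderm-like cells 29 members were tested. *Smarcd2* was higher, 1 of 29 against 9.01% of 6560 genes, and *Chd1l*, *Chd7* and *Srcap* were lower, 3 of 29 against 10.7%. Relative ratios were 1.61 (1.07 to 2.45) for *Smarcd2*, 0.636 (0.511 to 0.790) for *Chd7*, 0.757 (0.511 to 1.12) for *Chd1l* and 0.779 (0.598 to 1.01) for *Srcap*. The intervals of *Smarcd2* and *Chd7* leave out 1 and those of *Chd1l* and *Srcap* include it. *Smarcd2* rests on 39 control UMIs of 31 cells, and its ratio without the reference was 1.37 (0.868 to 2.26) in Xist-bearing and 1.30 (0.640 to 2.68) in Y-bearing cells. Its relative ratio was 1.86 (1.08 to 3.23) in Xist-bearing cells. In Y-bearing extraembryonic ectoderm-like cells the *Smarcd2* ratio was 1.07 (0.701 to 1.58), which leaves the relative ratio short of the limit there. The relative ratio of *Chd7* was 0.648 (0.481 to 0.872) in Xist-bearing and 1.03 (0.645 to 1.64) in Y-bearing cells, so that it passed the limit in the former and not in the latter.

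**Figure D5:**
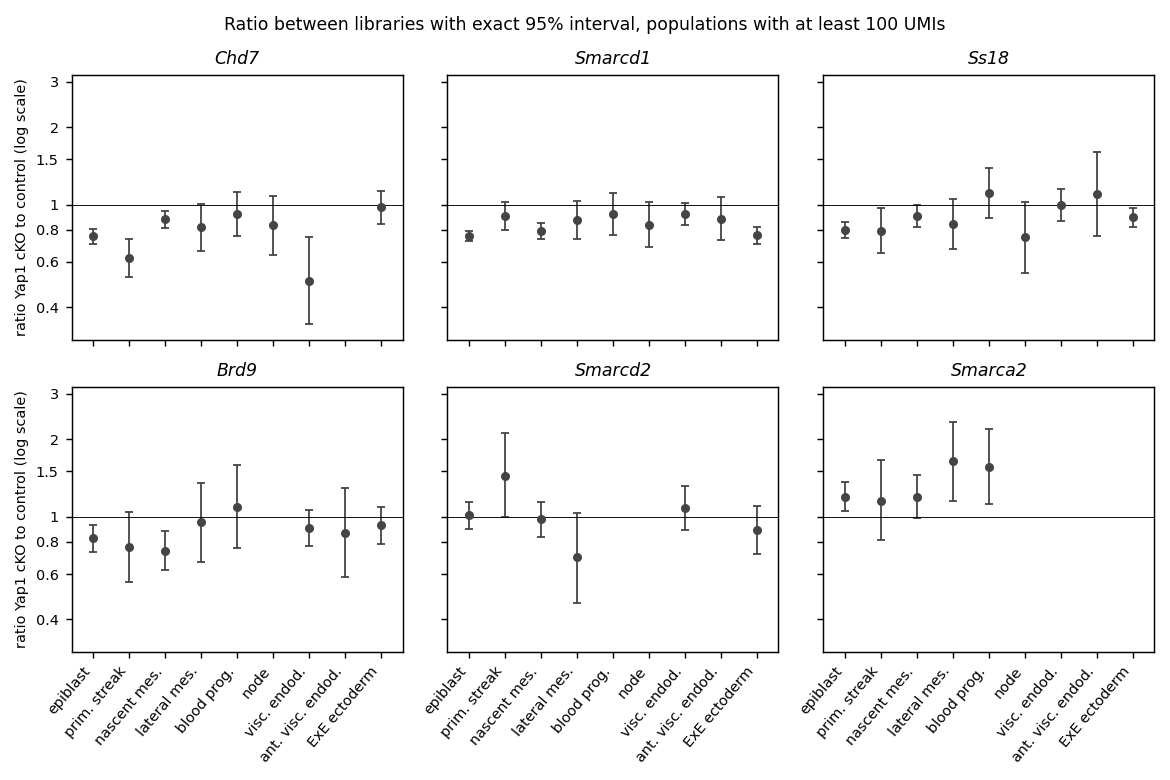
Ratio of cKO to control (vertical axis, log scale) with exact 95% intervals for 6 remodeler genes in each population with at least 100 UMIs over both libraries (horizontal axis). The line marks a ratio of 1. *Chd7* lies below the line in embryonic and visceral endoderm-like cells and at it in extraembryonic ectoderm-like cells (0.978), *Smarcd1* is as low in extraembryonic ectoderm-like as in epiblast-like cells, and *Smarca2* lies above the line in the 5 populations where it is plotted. Node-like cells, with 20 control and 4 cKO *Smarca2* UMIs, are not plotted for it. In nascent mesoderm-like cells the *Smarca2* ratio was 1.62 (1.23 to 2.14) in Xist-bearing and 0.916 (0.597 to 1.37) in Y-bearing cells.

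Elsewhere members also passed the limits between libraries, in the largest numbers in node-like and primitive streak-like cells. Without the reference, primitive streak-like cells had *Smarcd2* higher, 1 of 32 members against 7.47% of all genes, and *Chd1l*, *Chd7*, *Brd7*, *Brd9*, *Ss18* and *Srcap* lower, 6 of 32 against 13.8%. Of the 6, *Brd9* was past the limit in Xist-bearing cells but not in Y-bearing cells, at 0.756 (0.506 to 1.15) and 0.872 (0.497 to 1.52), and *Ss18* the other way round, at 0.827 (0.646 to 1.07) and 0.615 (0.410 to 0.914). In nascent mesoderm-like cells *Smarcc2* at 0.658 (0.544 to 0.795), *Brd9* at 0.739 (0.621 to 0.879) and *Smarcd1* at 0.794 (0.739 to 0.853) were lower, 3 of 34 against 7.36%, and 0 higher against 6.08%. The *Smarcc2* ratio was 0.651 (0.513 to 0.826) in Xist-bearing and 0.863 (0.568 to 1.28) in Y-bearing nascent mesoderm-like cells, that of *Brd9* 0.737 (0.595 to 0.913) and 0.587 (0.363 to 0.915), and that of *Smarcd1* 0.786 (0.718 to 0.860) and 0.857 (0.730 to 1.003). The epiblast-like ratios of *Smarcc2* and *Brd9* were 0.992 and 0.824. Visceral endoderm-like cells had *Chd7* and *Smarcc1* (0.793 (0.732 to 0.861)) lower, 2 of 32 against 9.54%, and 0 higher against 7.43%. Neither call held in both kinds of cells: *Smarcc1* was at 0.881 (0.795 to 0.979) in Xist-bearing and 1.04 (0.854 to 1.27) in Y-bearing cells, past the limit in neither, and *Chd7* was above 1 in Xist-bearing cells as given above.

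*Smarca2* was higher in the cKO library in lateral mesoderm-like (1.64 (1.16 to 2.33)) and blood progenitor-like cells (1.56 (1.12 to 2.19)), with 41 and 27 cells behind the first ratio and 25 and 24 behind the second. Y-bearing cells were 30 of the control and 6 of the cKO lateral mesoderm-like cells, and the part of sex in these ratios was not tested. *Arid2* (1.28 (1.04 to 1.56)) was the other member higher in lateral mesoderm-like cells, 2 of 30 against 9.42% of all genes, and *Smarcc2*, *Smarcd2* and *Srcap* were lower there, 3 of 30 against 12.6%. *Chd2* (1.61 (1.29 to 2.03)) and *Arid1b* (1.36 (1.07 to 1.74)) joined *Smarca2* in blood progenitor-like cells, 3 of 28 against 13.4%, where *Smarcad1* and *Ino80* were lower, 2 of 28 against 12.2%. Node-like cells, 16 per library, had *Dpf2* higher, 1 of 25 against 10.2%, and *Chd4*, *Chd6*, *Chd8*, *Smarcad1*, *Arid1a*, *Arid2*, *Brd7*, *Ss18* and *Ino80* lower, 9 of 25 against 16.1%, with a median log2 ratio of -0.23 for the members and -0.02 for all genes. Of these node-like cells 6 in control and 1 in cKO were Y-bearing. Anterior visceral endoderm-like cells had *Chd1* and *Chd8* higher, 2 of 25 against 13.8%, and *Smarcc1*, *Brd7* and *Srcap* lower, 3 of 25 against 9.93%.

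Relative to extraembryonic ectoderm-like cells fewer members passed, except in nascent mesoderm-like cells, where as many passed and *Smarcal1* did so only with the reference. *Smarcal1* was higher and *Smarcc2* and *Brd9* lower in nascent mesoderm-like cells, 1 and 2 of 31 against 9.88% and 6.72% of all genes. Within Xist-bearing and Y-bearing cells the relative ratio of *Smarcc2* there was 1.02 (0.718 to 1.46) and 0.599 (0.375 to 0.958), and that of *Brd9* 0.709 (0.508 to 0.989) and 0.592 (0.349 to 1.004). *Arid2* was higher and *Smarcd2* lower in lateral mesoderm-like cells, 1 each of 28 against 13.9% and 10.7%. *Chd2* and *Arid1b* were higher and 0 members lower in blood progenitor-like cells, of 26 tested, against 16.9% and 10.8%. *Dpf2* was higher and *Arid1a* lower in node-like cells, 1 each of 25 against 12.4% and 12.8%. In visceral endoderm-like cells 0 members were higher and *Chd7* was lower, of 31 tested, against 12% and 10.1%. Anterior visceral endoderm-like cells had *Chd1*, *Chd8* and *Arid1b* higher and *Srcap* lower, 3 and 1 of 25 against 17.8% and 8.32%. *Smarca2* had too few extraembryonic ectoderm-like UMIs to be tested on this scale.

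Other subunits of the same complexes were listed beside the members, 67 genes in all. In epiblast-like cells relative to extraembryonic ectoderm-like cells 61 were tested, and 1 was higher and 2 were lower, against 6.85% and 7.16% of 9375 genes. *Baz1a*, a partner of *Smarca5* in ISWI complexes, was higher at 1.70 (1.47 to 1.96). *Bcl7a*, a BAF subunit gene, and *Baz2b*, another ISWI partner, were lower at 0.750 (0.615 to 0.917) and 0.560 (0.427 to 0.735). Partner ratios were not taken within each sex. *Baz1a* stood at 14.1 CPM in control against 25.7 CPM in cKO epiblast-like cells, while *Baz2b*, at 58.6 and 56.9 CPM, differed little there and was among the partners higher in cKO extraembryonic ectoderm-like cells. Next in order were *Mta2* at 1.21 (1.04 to 1.42) and *Kat5* at 1.21 (0.953 to 1.53) on the high side and *Actr5* at 0.827 (0.626 to 1.09) on the low side, none of them past the limits. Between lineages, 16 of 64 tested partners were higher and 6 lower in epiblast-like than in extraembryonic ectoderm-like cells of both libraries at 1.5-fold, where 22.2% and 15.4% of all genes were, and their median log2 ratio was 0.28 against 0.49 for the members and 0.06 for all genes. In visceral endoderm-like against epiblast-like cells, 26 of 65 tested partners were lower and 5 higher, where 27.5% and 23.1% of all genes were. Their median log2 ratio was -0.52 there, against -0.48 for the members and -0.13 for all genes. The lower level in visceral endoderm-like cells was thus not particular to the members.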

How the data were processed

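UMI counts per gene and cell barcode were made by the authors with Cell Ranger 7.1.0 (default parameters) on mm10, as the methods and the submitters' processing notes state, and were deposited without normalization. In that version unspliced reads are counted by default, so long genes gain UMIs. A barcode was kept when 5000 genes or more were detected, mitochondrial UMIs were 10% or less and scrublet (scanpy 1.11.5, each library alone) did not call it, which left out 1 control and 4 cKO doublets and no cell by the mitochondrial limit. The cell numbers differ by a few from those the methods give. SoupX, clustering, pathway scores and tests between cells were not repeated, and data of other kinds were not analysed here.

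Cells were assigned by the summed CPM of marker lists, with thresholds set after the sums were seen: visceral endoderm 1000 (anterior with 300 of its own markers), extraembryonic ectoderm 200, blood progenitor 200, node 300, lateral mesoderm 200, nascent mesoderm 150, primitive streak 50 (*T* and *Mixl1*) and epiblast 1000. Mixed cells (7 and 16) and ungated cells (2 and 0) were left out. The extraembryonic ectoderm gate used 6 of the 9 listed markers (*Rhox6*, *Rhox9*, *Elf5*, *Wnt7b*, *Esrrb* and 1 not reported here) and barred cells with mesoderm or blood markers. This was chosen after *Smarca2* UMIs had been seen in gated cells that lacked *Elf5* and *Rhox6*, and the gate on all 9, with and without barring those cells, was kept as an alternative.

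UMIs were summed per population and library. Intervals at 95% are exact (Clopper-Pearson for shares, Poisson for CPM, and for ratios a binomial given the sum of both counts) or, for relative ratios, from the 4 counts on the log scale. They cover counting error only. A call needs 100 UMIs and a difference of 25% upward or 20% downward between libraries, or 1.5-fold in both libraries between populations. Intervals and self-tests used numpy 2.4.6 and scipy 1.17.1, and the steps were tested on simulated data. Members, gene lists and tests were chosen with earlier results of these data known. Levels in every population are given for *Chd7* and *Smarcd1*, the 4 highest and 4 lowest members in epiblast relative to extraembryonic ectoderm and the 6 with the widest control range. Other members are given by chosen populations, and the 3 highest and 3 lowest partner genes are named. The contrasts of nascent mesoderm with epiblast and of visceral endoderm with extraembryonic ectoderm, the span classes and the printed promoters were chosen after values had been seen. Gene spans are those of GENCODE M21 (GRCm38), and overlapping genes were not told apart beyond the authors' counting. Alternatives were 2000 or 6000 genes per barcode, 5% mitochondrial UMIs, called doublets left in, other scalings, UMI minimums of 20 and 500, folds of 1.5 and 2, gates 2 times lower and higher, Xist-bearing or Y-bearing cells alone, cells weighted equally, *Fgf8*-low epiblast and visceral endoderm as reference.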

Additional observations from a re-analysis of the deposited data

How the results depend on the processing

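Under the alternatives only members were counted, so these counts cannot be set against a share of all genes. The number of members called, higher and lower together, stayed within 1.5 times the main count under most alternatives and moved as follows. In epiblast-like cells (3, all lower) it was 0 at folds of 1.5, 5 in Xist-bearing cells (2 higher) and 6 in Y-bearing cells, and *Chd7* was among those called in both. Relative to extraembryonic ectoderm-like cells (1, lower) it was 3 at 20 UMIs, 0 at folds of 1.5, 2 with gates 2 times higher (1 higher), 6 in Xist-bearing cells (3 higher), 7 in Y-bearing cells (2 higher), 2 in *Fgf8*-low cells and 2 with visceral endoderm-like cells as reference (both higher). With cells weighted equally the count was again 1, but this was *Smarcc2*, higher, and not *Chd7*. In primitive streak-like cells (4) it was 7 at 20 UMIs, 1 at 500 UMIs, 2 at folds of 1.5, 7 in Xist-bearing and 8 in Y-bearing cells. At folds of 2, 6 members were called in epiblast-like against extraembryonic ectoderm-like cells (16) and 7 in visceral endoderm-like against epiblast-like cells (16). The relative ratio of *Chd7* reversed to 1.31 in Y-bearing cells and to 1.49 with visceral endoderm-like cells as reference, and to 2.26 with both (chosen after seeing the data), while that reference gave 0.686 in Xist-bearing cells. The cause was not tested in any of these. Extraembryonic ectoderm gated on all 9 markers, chosen after seeing the data, gave 1, 4 and 14 calls for the 3 results it touches. For the members followed singly, 180 epiblast-like ratios and 155 relative ratios stayed within their counting interval over the alternatives, 15 and 14 moved further, and the 3 values of *Chd7* above reversed. Members short of the limits were not counted as reversed, but relative ratios of *Smarcc2* ranged from 0.607 to 1.65, of *Smarcd2* from 0.745 to 1.64 and of *Arid1b* from 0.851 to 1.51. The ends of these ranges were Xist-bearing and Y-bearing cells, in which sex and embryo cannot be told apart. The wider extraembryonic ectoderm gates, also chosen after seeing the data, moved 6 of 12 ratios of *Smarca1*, *Smarca2* and *Chd9* past their intervals. *Chd7* in epiblast-like cells ranged from 0.727 to 0.785 and *Smarcd1* from 0.728 to 0.815 over all alternatives. No paired analysis was possible because the groups compared share fewer than 2 replicate numbers. The depth of the small populations limits ratios there: node-like sums held 1238410 and 1133289 UMIs, against 22134104 and 27521988 in epiblast-like cells.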
